A study of Mus musculus with 5 samples.

Results

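Il4i1 and the 3 genes whose transcripts lie over or beside it, Nup62, Atf5 and Tbc1d17, were described in 5 RNA sequencing libraries of bone marrow-derived macrophages from wild-type C57BL/6 mice. These 4 genes, of 49341 with a value in the deposited files, were selected on their deposited FPKM in this contrast, in which Il4i1 was listed at 0 in one treatment group and well above 0 in the other, together with their position. So the difference between the groups is a description for them and carries no test. Marrow cells had been differentiated for 6 days with CSF1 or L929 supernatant, and 96% carried the macrophage surface markers that were stained, per the labels. All cells then received 10 ng/ml interleukin 4 (IL-4), and RNA was taken 24 h later. Before IL-4, the cells of 3 libraries (replicates 3, 4 and 5) received 30 µM CBR-5884, which blocks PHGDH, the enzyme that starts serine synthesis. The cells of the other 2 libraries (replicates 3 and 5) received solvent. No library without IL-4 was analysed here, so induction by IL-4 itself was not measured. Nothing in the labels ties the replicates to separate mice or dishes, and a p-value therefore measures the spread between these libraries, which may be technical.

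IL4I1 (interleukin 4 induced 1) is a secreted L-amino acid oxidase that deaminates phenylalanine, tyrosine and tryptophan and releases hydrogen peroxide and ammonia. Its products limit T cell proliferation, and the ketoacid made from tryptophan feeds ligands of the aryl hydrocarbon receptor (AHR). The gene is known in B cells and in myeloid cells, and a longer form of its transcript begins at the promoter of Nup62, which encodes a central channel protein of the nuclear pore. ATF5 is a stress-responsive transcription factor of the basic leucine zipper class that takes part in the mitochondrial unfolded protein response. TBC1D17 is a GTPase-activating protein for Rab proteins that acts on endosomal transport of the transferrin receptor.

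On mouse chromosome 7 (mm10, GRCm38) Nup62 and Il4i1 lie on the plus strand, and Atf5 and Tbc1d17 on the minus strand. Il4i1-201 (ENSMUST00000033015), the shorter Il4i1 form, starts at chr7:44836287 and has 8 exons and 2048 nt, with an open reading frame of 630 codons. All 2048 of its exonic bases lie inside the last exon of Tbc1d17-201 on the other strand. Il4i1-202 (ENSMUST00000118125) spans chr7:44816396-44840804 and has 9 exons and 2275 nt, with a reading frame of 638 codons. It shares 83 nt of its first exon with Nup62-203 and has exons 2 and 3 of its own between Nup62 and Il4i1-201. From exon 4 on it shares its sequence with Il4i1-201, and 87.0% of it lies in exons of Tbc1d17-201. Nup62-203 (ENSMUST00000207103, chr7:44816383-44830804) has 2 exons and 2414 nt, and all 526 codons of its reading frame are in the second. Tbc1d17-201 (ENSMUST00000047085) has 17 exons and 8750 nt. Atf5-201 (ENSMUST00000047356) has 3 exons and 1816 nt, of which 77 overlap the first exon of Nup62-203 on the other strand.

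**Figure D1:**
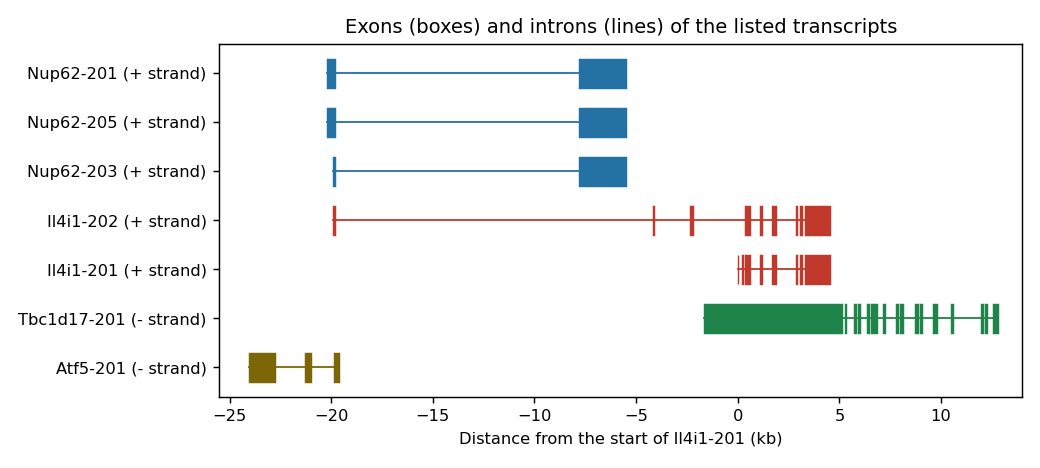
Exons (boxes) and introns (lines) of the listed transcripts of the 4 genes, by distance in kb from the start of Il4i1-201; colours mark genes and the strand is given beside each name. Every exon of Il4i1-201 falls within the large last exon of Tbc1d17-201, and Il4i1-202 starts at the first exon of Nup62.

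The splice junctions below are shown because they are what tells the Il4i1 and Nup62 forms apart. Each line gives 30 bases of the GENCODE M21 transcript, 5′ to 3′, with the 15 bases of the downstream exon in capitals. The Il4i1 pair joins different exons to the same acceptor at chr7:44836631, and the Nup62 pair joins different ends of the first exon to the same second exon at chr7:44828487.
Il4i1-201, exon 2 to exon 3: ccatggctgggctggCCCTGCGTCTTGTCC
Il4i1-202, exon 3 to exon 4: aaagaccaccatgcaCCCTGCGTCTTGTCC
Nup62-203, exon 1 to exon 2: gagcggagagtgaagAAACCTCCCCAAGGT
Nup62-201, exon 1 to exon 2: gagagtgaaggcgcgAAACCTCCCCAAGGT
The files give no read counts per junction, so use of each junction was read only through the transcript estimates.

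The window around the start of Il4i1-201 is shown because it too lies wholly inside the last exon of Tbc1d17-201. It is the RefSeq promoter window (GRCm38.p6, chr7:44836038-44836337, plus strand, 250 bases before and 50 after the start), with the 30 bases of exon 1 of Il4i1-201 in capitals.
Il4i1 promoter: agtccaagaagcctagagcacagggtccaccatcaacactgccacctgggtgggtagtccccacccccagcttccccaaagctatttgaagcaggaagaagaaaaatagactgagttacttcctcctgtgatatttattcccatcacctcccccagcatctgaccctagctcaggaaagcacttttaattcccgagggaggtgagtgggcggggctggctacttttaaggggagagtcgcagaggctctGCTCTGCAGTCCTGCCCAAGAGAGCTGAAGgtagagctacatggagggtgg
The STAT-type letters TTCNNNNGAA and TTCNNNGAA, which read the same on both strands, have 0 matches in this window. They occur in 6.95% and 8.30% of the 32851 RefSeq promoter windows of this length. The window of Nup62 and both windows of Atf5 also have 0 matches. No match says only that these letters are not in these windows.

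Values are FPKM (fragments per kilobase of transcript, scaled by the library's mapped fragments) with the 95% interval that the files give for each transcript in each library. Il4i1 had 2 of its 6 annotated transcripts in the files. Il4i1-201 was listed at 0 in CBR-5884 replicates 3, 4 and 5, with upper interval ends of 0.0355, 0.0364 and 0.0361 FPKM. In the solvent libraries it was at 44.3 FPKM (41.6 to 47.0) in replicate 3 and 44.0 (41.4 to 46.7) in replicate 5. The groups did not overlap, and the solvent libraries differed by less than the width of either interval. The share of all genes whose groups do not overlap is not given here. Non-overlap, here and below, is therefore only a description. Coverage times length over read length turns the solvent values into about 2619 and 2554 fragments. Il4i1-202, the form from the Nup62 promoter, was listed at 0 in all 5 libraries.

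All of the FPKM listed for Nup62 was on Nup62-203 in every library, with Nup62-201 and Nup62-205 listed at 0. Nup62-203 was at 56.7 FPKM (53.6 to 59.8) in CBR-5884 replicate 3, 72.6 (68.9 to 76.4) in replicate 4 and 71.6 (67.9 to 75.3) in replicate 5. It was at 54.2 (51.2 to 57.3) in solvent replicate 3 and 52.8 (49.9 to 55.8) in solvent replicate 5. The CBR-5884 values were all above the solvent values, but the interval of CBR-5884 replicate 3 met both solvent intervals. The group means were 67.0 ± 8.92 (SD, n = 3) with CBR-5884 and 53.5 ± 0.97 (SD, n = 2) with solvent, a difference of 0.31 (SE 0.13) on the log2(FPKM + 1) scale. The difference between CBR-5884 replicate 3 and the other two was larger than the difference between that replicate and solvent.

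Tbc1d17 reached 28.8, 27.6 and 25.5 FPKM under CBR-5884 (replicates 3, 4 and 5), against 30.4 and 30.1 under solvent (replicates 3 and 5). The difference was -0.15 (SE 0.07) on the log2(FPKM + 1) scale, with means of 27.3 ± 1.70 (SD, n = 3) and 30.3 ± 0.20 (SD, n = 2). All 3 CBR-5884 values were below both solvent values. In CBR-5884 replicate 3 alone the gene was split between Tbc1d17-201, at 11.7 (11.1 to 12.4), and an assembled transcript of 6614 nt on the same strand, at 17.1 (16.1 to 18.1). Counting reference transcripts only, which leaves the assembled one out, the difference was -0.56, so the size of the difference in Tbc1d17 rests on how that library's fragments were split. Tbc1d17-201 by itself was at 27.6 (26.3 to 28.9) and 25.5 (24.2 to 26.7) in CBR-5884 replicates 4 and 5, against 30.4 (29.0 to 31.9) and 30.1 (28.7 to 31.6) with solvent.

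**Figure D2:**
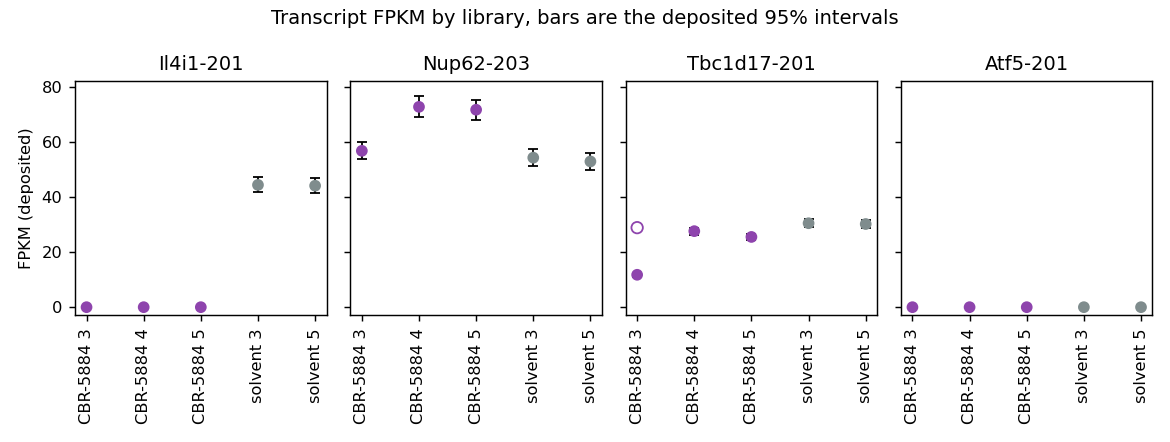
Deposited FPKM (linear axis) of 1 transcript per gene in each library; purple points are CBR-5884 replicates 3, 4 and 5, grey points are solvent replicates 3 and 5, bars are the deposited 95% intervals, and the open circle is Tbc1d17 in CBR-5884 replicate 3 with its assembled transcript added. Il4i1-201 is at 0 in the 3 CBR-5884 libraries and near 44 in both solvent libraries, while Nup62-203 and Tbc1d17 are above 0 in all 5.

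Atf5 was listed at 0 in all 5 libraries for each of its 3 transcripts. The files nevertheless gave Atf5-201 and Atf5-202 the mark for full read support in all 5 libraries, which by Cufflinks' definition says that every intron and internal exon of the transcript was covered by reads. The internal exon of Atf5-201 has 294 nt, which takes at least 4 reads of 75 nt to cover. The upper interval end of Atf5-201 stands for 2.33 to 2.77 fragments per library. That is below those 4 reads, but the definition does not say that the reads must be assigned to Atf5-201. Atf5-203 also has an internal exon of 294 nt, and its upper interval end stands for more than 4.7 fragments in each library. So no conflict between the mark and the intervals is shown for the gene as a whole. The mark still says that reads covered Atf5-201, and Atf5 is reported as listed at 0, not as unexpressed. The mark is no measure of level in the other direction either, since Il4i1-201 lacked it in all 5 libraries, the solvent ones at 44 FPKM included. Of 9344 protein-coding genes with a mean of at least 1 FPKM and at least 3 exons, 1084 (11.6%) lacked it in all 5 libraries.

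Zeros with the mark were not particular to Atf5. Nup62-201, listed at 0 in all 5 libraries, also had the mark in all 5. With 2 exons it has no internal exon, so its mark asks only that its intron be covered. Nup62-203, which held the listed FPKM of Nup62, lacked it in CBR-5884 replicates 3 and 5. The zeros of Nup62-201 are therefore not read as absence of that form. Of 4868 protein-coding genes of at least 3 exons that were at 0 in all 5 libraries, 86 had the mark in all 5. Of those 86, 51 (59.3%) overlapped an exon of a gene on the other strand, against 892 of the other 4782 (18.7%) and 2917 of the 9344 genes at a mean of at least 1 FPKM (31.2%). Genes are not independent replicates, and these shares are given as a description. Akt1s1, which encodes a subunit of the kinase complex mTORC1 and overlaps Tbc1d17-201 by 85 nt, and Fuz, a planar polarity gene needed for cilia, are a pair within 100 kb with the same combination of 0 FPKM and the mark in all 5 libraries.

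The zeros of Il4i1 were then read against a second value in the files, frac, a share between 0 and 1 given to each transcript. At this locus the frac of Nup62, Il4i1 and Tbc1d17 added up to 1 in each of the 5 libraries, although the genes lie on both strands, so their levels were estimated as 1 joint set. In solvent replicate 3 Il4i1 held 0.167 of the set, Nup62 0.235 and Tbc1d17 0.598. In solvent replicate 5 Il4i1 held 0.173, Nup62 0.231 and Tbc1d17 0.597. With CBR-5884, Nup62 held 0.344, 0.363 and 0.378 in replicates 3, 4 and 5, and Tbc1d17 the rest. Il4i1 thus had the smallest share of the 3 in both libraries where it was above 0.

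No transcript above 0 FPKM had a frac below 0.1 in any library. The lowest was 0.10001 to 0.10018 over 28992 to 29680 transcripts above 0 per library, and 0 of the transcripts at 0 FPKM had a frac above 0. Between 11.5% and 11.9% of the transcripts above 0 had a frac from 0.1 to 0.2. A share of its set below 0.1 thus has no listed level in these files. For Il4i1-201 this gives a limit on what a 0 can hold. With Nup62 and Tbc1d17 at their listed values, and the relation of frac to FPKM taken from the solvent libraries, Il4i1-201 would reach a frac of 0.1 at 23.5, 24.8 and 23.5 FPKM in CBR-5884 replicates 3, 4 and 5. That is far above the upper interval ends that the files print for it, and below the 44 FPKM of the solvent libraries. The 3 zeros place Il4i1-201 below 23.5 to 24.8 FPKM under these assumptions and do not show that it was absent, and no fold is given. The limit takes Il4i1-202 at its listed 0. That form, which shares most of its sequence with Il4i1-201, could hold a share below 0.1 as well. The zeros therefore do not place the gene as a whole below its level in the solvent libraries.

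**Figure D3:**
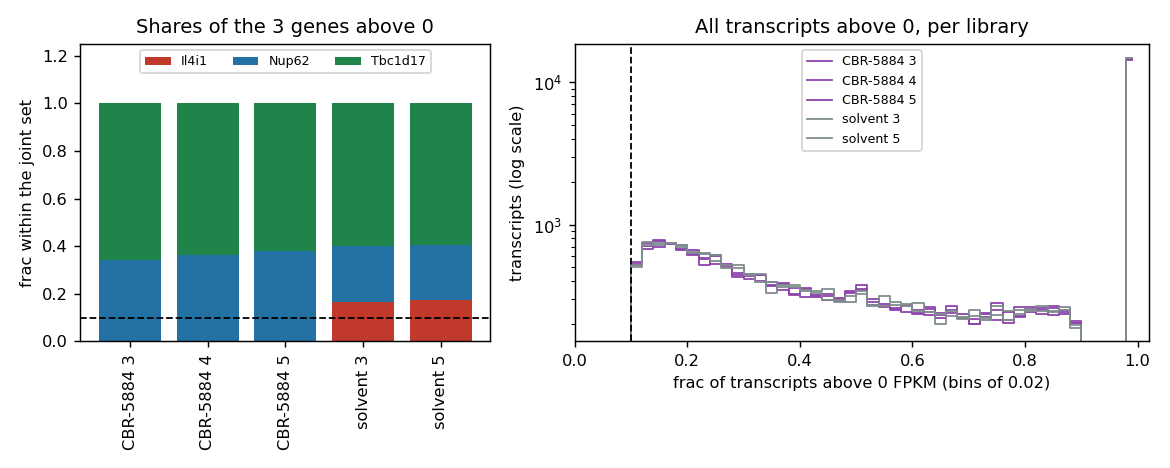
Left, the frac of Il4i1, Nup62 and Tbc1d17 in each library, stacked, with the dashed line at 0.1; right, the number of transcripts above 0 FPKM per frac bin of 0.02 (log axis) in each library. The shares of the 3 genes add up to 1 in all 5 libraries, and on the right no transcript lies below the dashed line at 0.1.

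The fragments implied for the set were compared next. Their total does not depend on how fragments were split among genes above 0. A gene listed at 0 adds no fragments, so the total is not independent of the zeros of Il4i1. Scaled to 1000000 fragments of the library, the set held 353, 417 and 396 in CBR-5884 replicates 3, 4 and 5, against 488 and 482 in solvent replicates 3 and 5. All 3 CBR-5884 values were below both solvent values. Without Il4i1, which took 90.8 and 90.2 on this scale in the solvent libraries, the solvent values were 397 and 391, inside the range of the CBR-5884 libraries. Nup62 alone took 137, 175 and 173 with CBR-5884 and 131 and 128 with solvent. Tbc1d17 took 216, 241 and 223 with CBR-5884 and 266 and 264 with solvent. All 3 CBR-5884 values were above solvent for Nup62 and below solvent for Tbc1d17, with no share over all genes to set beside this. Whether fragments of a transcript set to 0 were kept in the estimate of the others or dropped is not given in the sources used here, so the fall of the set's total cannot be told apart from such a loss.

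Summed over both strands, the deposited coverage per base over the exons of Il4i1-201 was 58.3, 62.5 and 58.6 with CBR-5884 and 162 and 158 with solvent. The CBR-5884 mean was 37.5% of the solvent mean. All of the coverage in the CBR-5884 libraries came from Tbc1d17 transcripts on the minus strand, which gave 65.9 and 64.0 with solvent. The kit was directional, per the labels, but the strand setting of the counting is not given in the sources used here. All single-exon assembled transcripts outside annotated exons carried a strand (3161 to 3458 per library), although they have no splice site to give one. Reads spliced across the introns of Il4i1-201 can be told from Tbc1d17-201, whose last exon runs through those introns, but unspliced reads could be told apart only by strand. Spliced and unspliced reads are not given separately in the transcript tables, and how the overlap was resolved was not tested. Among 9863 protein-coding genes with a mean of at least 1 FPKM, 31.0% had any exonic overlap with a gene on the other strand. Il4i1 had 85.9% of its annotated exonic bases in such overlap, and 16 of those genes (0.162%), Il4i1 included, had as much.

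The pattern of Il4i1, 0 in every CBR-5884 library and at least 5 FPKM in both solvent libraries, was shown by 11 of 10770 genes with a mean of at least 1 FPKM (0.102%). The reverse pattern was shown by 7 (0.065%). These counts rose to 18 and 16 without CBR-5884 replicate 5, to 52 and 17 without solvent replicate 3 and to 40 and 12 without solvent replicate 5, and the reverse to 11 without CBR-5884 replicate 4. Most were short: 7 of the 11 and 4 of the 7 had no transcript of 200 nt or more. These were the small RNA genes and short models Gm25970, Gm11032, Gm22591, n-R5s54, Gm26254, Gm44310 and Gm26493 with the pattern, and Snord83b, Snora78, Gm8034 and Gm25776 with the reverse. Gm10521, also with the reverse, is a single-exon model. The remaining 6 were protein-coding genes of at least 3 exons. Il4i1 is 1 of them and was selected for this pattern with its overlapping neighbours, so its overlap is no result. The other 5 overlapped an exon of a gene on the other strand too. Such overlap was found for 31.2% of protein-coding genes of at least 3 exons with a mean of at least 1 FPKM. The largest such overlap was 3423 nt for Il4i1, 325 nt for Polr2i and 321 nt for Mcm7, but 45 nt for Pik3r2, 45 nt for Dkc1 and 4 nt for Elob.

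Besides Il4i1, the pattern was shown by Pik3r2, Mcm7 and Dkc1. Pik3r2, a regulatory subunit of PI3-kinase, was at 17.1 and 16.1 FPKM in solvent replicates 3 and 5 with a frac of 0.102 in each. Mcm7, a subunit of the replicative helicase, was at 7.33 and 8.15 FPKM with a frac of 0.169 and 0.190. Dkc1, the pseudouridine synthase dyskerin, was at 6.74 and 6.96 FPKM with a frac of 0.116 in each. The mark for full read support was present in 3 of the 3 CBR-5884 libraries for Pik3r2, in 2 for Mcm7 and in 1 for Dkc1, and in none for Il4i1.

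The reverse was shown by Elob and Polr2i, which every cell uses. Elob, the elongin B subunit of ubiquitin ligases, was at 213, 194 and 219 FPKM in CBR-5884 replicates 3, 4 and 5 with a frac of 0.107 to 0.118. Polr2i, a subunit of RNA polymerase II, was at 20.3, 21.1 and 20.6 FPKM with a frac of 0.121 to 0.134. Both had the mark in both solvent libraries, where they were at 0. Where they were above 0, all 6 genes had a frac between 0.102 and 0.190, against the lowest listed value of 0.1. Of all transcripts above 0, 11.5% to 11.9% per library had a frac from 0.1 to 0.2. Il4i1 was selected for its pattern, and the other 5 genes were found by the same pattern, so this range is only a description. Il4i1 (0.167 and 0.173) and Mcm7 (0.169 and 0.190) lay further above 0.1 than the others. Il4i1 differed from the other 5 in that it had the mark in none of its libraries at 0, but it lacked it at 44 FPKM as well.

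**Figure D4:**
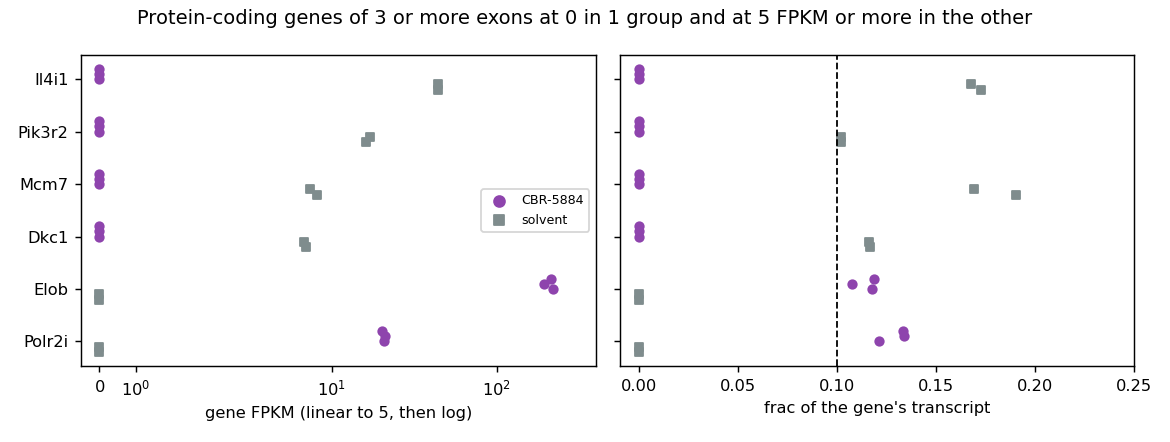
Gene FPKM (left, linear to 5 and then log) and frac of the gene's transcript (right) for the 6 protein-coding genes of at least 3 exons at 0 in every library of 1 group and at 5 FPKM or more in every library of the other; circles are CBR-5884 and squares are solvent libraries, and the dashed line marks a frac of 0.1. Where the genes are above 0, their frac lies between 0.102 and 0.190.

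The other genes of the neighbourhood were tested with limma over all genes. Over the 10770 genes, 24 (0.223%) passed at an adjusted p below 0.05, 5 higher and 19 lower with CBR-5884, and 2114 had an unadjusted p below 0.05. Without solvent replicate 3 or 5 the calls numbered 89 or 66. Il4i1 is 1 of the 24, but it was chosen on this contrast and nothing is read from that. Of 8 other protein-coding genes within 100 kb described here, 0 of the 4 tested passed limma's test, and the other 4 had too low a mean. Med25, a Mediator subunit, had 15.3, 16.5 and 15.6 FPKM under CBR-5884, against 18.4 and 17.0 under solvent, a difference of -0.16 (SE 0.06, limma adjusted p = 0.272). Vrk3, a kinase-like protein, had -0.10 (limma adjusted p = 0.442), Ap2a1, a clathrin adaptor subunit, -0.06 (0.645) and Ptov1 -0.05 (0.896). Izumo2 and Zfp473 were at 0 in all 5 libraries, as were Akt1s1 and Fuz.

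**Figure D5:**
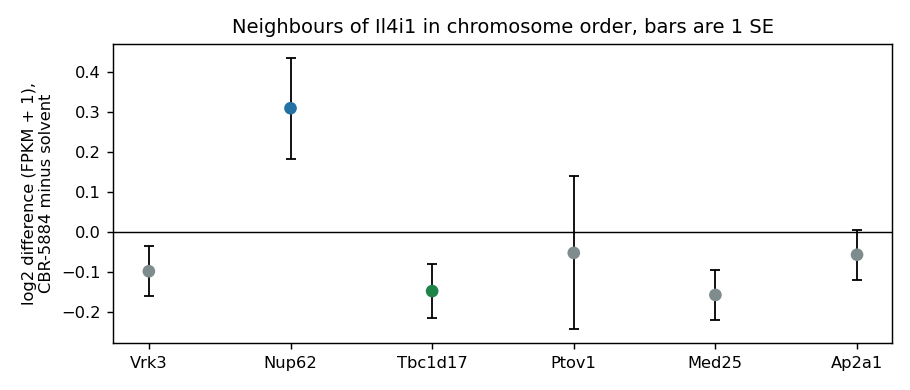
Difference between CBR-5884 and solvent on the log2(FPKM + 1) scale for the tested genes around Il4i1, in chromosome order; bars are 1 SE from limma, grey points are genes that are tested here, and the blue and green points are Nup62 and Tbc1d17, which are described without a test. Nup62 is the one point above 0, at 0.31, and the 4 grey points lie between -0.16 and -0.05.

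Genes of the pathways of the 4 members were read from 6 lists. In the IL-4 response list, 1 of 26 tested genes passed limma's test and was lower with CBR-5884, and the list's median difference was -0.34, against -0.03 for all genes tested. The gene that passed was Tgm2, a transglutaminase and marker of the IL-4 state, at 37.0 ± 0.75 FPKM (SD, n = 3) with CBR-5884 and 62.6 ± 3.87 (SD, n = 2) with solvent (-0.74, SE 0.06, limma adjusted p = 0.0469). It lost the call under 13 of 16 alternatives, with limma adjusted p-values of 0.0516 to 0.331. Retnla, the secreted protein RELMα, was at 1473 ± 189 (SD, n = 3) and 6444 ± 1617 (SD, n = 2) FPKM (-2.11, SE 0.20, limma adjusted p = 0.0666). Chil3, a chitinase-like protein of the same state, had a difference of 0.42 (limma adjusted p = 0.168) and Itgax, the integrin CD11c, -0.17 (limma adjusted p = 0.508).

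The list of amino acid and amine oxidases leaves out Il4i1 and also holds catalase, which is no such oxidase. In it 0 of 8 tested genes passed limma's test, and the median difference was 0.02. Cat, the catalase that breaks down the hydrogen peroxide such oxidases release, was at 379 ± 6.50 FPKM (SD, n = 3) with CBR-5884 and 269 ± 9.21 (SD, n = 2) with solvent (0.49, SE 0.04, limma adjusted p = 0.0614). It passed under quantile normalization (0.0364) and median-ratio scaling (0.0478). Pcyox1 and Kdm1a had differences of 0.14 and 0.02 (limma adjusted p = 0.306 and 0.901). In the AHR and kynurenine list, 0 of 13 tested genes passed, with a median of -0.10. Slc3a2, a subunit of the amino acid carrier that takes up kynurenine, had a difference of 0.39 (SE 0.05, limma adjusted p = 0.101). Nqo1, a quinone reductase and AHR target, had 0.62 (SE 0.11, limma adjusted p = 0.131), and Got2 had -0.12 (limma adjusted p = 0.633).

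In the nucleoporin list without Nup62, 0 of 24 tested genes passed limma's test, with 8 above 0, 16 below 0 and a median of -0.06. Nup88, a nucleoporin of the cytoplasmic face, had a difference of 0.43 (SE 0.08, limma adjusted p = 0.131), Sec13 -0.14 (0.325) and Tpr -0.08 (0.702). In the list of ATF5 and mitochondrial stress, 0 of 18 tested genes passed, with a median of -0.03. Mcl1, Cebpb and Hspe1 had differences of -0.05, 0.12 and -0.16 (limma adjusted p = 0.658, 0.594 and 0.422). In the list of TBC domain proteins and partners of TBC1D17, 0 of 26 tested genes passed, with a median of -0.08. Tfrc, the transferrin receptor, had a difference of 0.06 (limma adjusted p = 0.865), Tbc1d13 -0.10 (0.374) and Rab21 0.15 (0.278).

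The labelled cell type was checked on marker lists. All 8 macrophage markers were above 1 FPKM on average, and their summed level was 9743 to 13078 FPKM with CBR-5884 and 11011 to 13092 with solvent. B cells, another source of Il4i1, had 0 of 5 markers above 1 FPKM, and their summed level was 0.0949 to 0.330 with CBR-5884 and 0.222 to 0.293 with solvent. Dendritic cells had 0 of 5 markers above 1 FPKM, with a summed level of 0.880 to 1.18 with CBR-5884 and 1.36 to 2.06 with solvent. T cells had 0 of 4 above 1 FPKM, with Cd3e, Cd3d and Cd3g at 0 in all 5 libraries. The neutrophil and fibroblast lists each had 2 markers above 1 FPKM. Their summed levels were 10.3 to 12.7 and 10.4 to 16.3 with CBR-5884, and 9.38 to 19.6 and 17.1 to 18.2 with solvent. The part of the dendritic cell and fibroblast signal, lower with CBR-5884, in the zeros of Il4i1 was not tested. In bulk RNA, fewer cells of a type and less RNA per cell cannot be told apart.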

How the data were processed

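The 5 libraries came from a directional kit and were read as single 75 nt reads, per the labels' protocols. The submitters' processing notes name Bowtie2, TopHat2, Cufflinks and the build mm10 (GRCm38). Versions, annotation release and counting strand: not given in the sources used here. The deposited transcript tables list FPKM, a 95% interval, frac, coverage and the mark for full read support, which the authors estimated library by library, as the tables show. No scaling between libraries is recorded. Coverage over FPKM implies 28310000 to 30700000 fragments per library, which were not counted here.

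GENCODE M21 placed 99.5% of the reference transcripts in genes. Assembled transcripts of at least 200 nt went to the gene on their strand that held at least 50% of their exonic bases. Gene FPKM was their sum. Genes with a mean of at least 1 FPKM (10770) were tested with limma 3.58.1 (R 4.3.3, variance trend, two-sided, 3 residual degrees of freedom, Benjamini-Hochberg adjustment over all tested genes) on log2(FPKM + 1), a scale that understates the change of low genes. The fit was tested on simulated data. Exonic overlap was taken with bedtools 2.31.1. Implied fragments are coverage times length over read length. Across genes, libraries of a group correlated at 0.925 to 0.937 and libraries of different groups at 0.911 to 0.928 (Pearson's r).

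The members, lists and tests were chosen with earlier results of these data known. The named genes are the members, all protein-coding genes within 100 kb (1 is not reported here), the called genes and the 3 highest of each list, and up to 10 genes with the pattern of Il4i1 or its reverse. The reading of frac, of the fragments of the set and of the mark was chosen after the values were seen. Alternatives were other pseudocounts, filters, scalings, transcript sums, a replicate block and leaving out each replicate.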

Additional observations from a re-analysis of the deposited data

How the results depend on the processing

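Il4i1 was listed at 0 in every CBR-5884 library, so no alternative could change its direction. Its difference of -5.50 only restates the pseudocount: -8.79 with 0.1 and -3.30 with 5. It was -5.46 after quantile normalization, -5.48 with median ratios, and -5.49 to -5.50 without a solvent replicate. Nup62 and Tbc1d17 kept their direction, and Tbc1d17 moved to -0.56 with reference transcripts only and with the most abundant one. Coverage over Il4i1-201 was 37.5% of solvent, 35.2% when scaled by coverage over FPKM, and 0 on its own strand. No base of Il4i1-201 is unshared, so that alternative gave no value.

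Calls over all genes were 24, and 38 without a filter, 9 at a mean of at least 5 FPKM, 39 with reference transcripts only and 19 to 89 without 1 replicate (89 without solvent replicate 3, 66 without solvent replicate 5). The groups share the numbers 3 and 5, and deviations of same-numbered libraries from their group mean correlated at 0.0702 and 0.0822. Solvent replicates 3 and 5 deviate from their mean by equal and opposite amounts. So CBR-5884 replicate 3 with solvent replicate 5 gave -0.0702, and CBR-5884 replicate 5 with solvent replicate 3 gave -0.0822. These correlations therefore cannot decide whether same-numbered libraries were paired. A fit with the replicate block called 3. The count of 1 call in the lists, Tgm2, became 0 with either other pseudocount, at a mean of at least 5 FPKM, with the most abundant transcript, with the replicate block, without the variance trend and without any 1 replicate. With quantile normalization and median ratios the count stayed at 1, but Tgm2 lost its call (limma adjusted p = 0.0546 and 0.0561) and Cat gained one. The pattern of Il4i1 was shown by 20 genes at a floor of 1 FPKM and by 14 to 52 without 1 replicate (18 without CBR-5884 replicate 5, 52 and 40 without solvent replicates 3 and 5); the reverse by 14 at 1 FPKM, 4 at 10 FPKM, 14 with reference transcripts only and 9 to 17 without 1 replicate (11 and 16 without CBR-5884 replicates 4 and 5, 17 and 12 without solvent replicates 3 and 5). Among the tested genes named from the lists and within 100 kb, only Tgm2 and Cat changed their call; calls of the genes with the pattern of Il4i1 or its reverse were not followed across alternatives. FPKM keeps no read counts, so depth at a single transcript is known only by implication.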
